A study of Larimichthys polyactis and Larimichthys crocea with 36 samples.

Results

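The IDs described here are 14 gene models that stood above both parental species in the liver of both reciprocal hybrids of yellow croaker, chosen from 24212 gene identifiers (IDs) in the deposited table. They were chosen on liver values alone, apart from a limit on tissue restriction. The lowest of the 6 hybrid liver values had to exceed the highest of the 6 parental ones, and the hybrid mean had to reach an FPKM of 5 and 1.5 times the higher parental mean. FPKM is a fragment count divided by transcript length and by library size. Of 21317 IDs that begin with evm.model.Chr, 35 met the first condition, 26 of these also met the limits on level and fold, and 12 of those were dropped because their highest tissue mean was 8 or more times both other tissue means. All 12 were highest in liver. Because the liver values chose the members, the liver difference between hybrids and parents is described below without a test of its own.

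The RNA came from 3 tissues (liver, muscle and brain) of 4 crosses, the hybrids LPC and LCP, large yellow croaker (Larimichthys crocea, LC) and small yellow croaker (Larimichthys polyactis, LP). There were 36 libraries, 3 in each of 12 groups, in a study of heterosis for growth. The labels give no age, sex, treatment or rearing condition, and do not say which species was the mother of LPC or of LCP, nor whether separate fish gave the 3 libraries in each group. The p-values thus rest on library-to-library spread, which may be technical. The files do not pair IDs with gene names, so no function is given to any member and the tissue labels could not be checked against marker genes.

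Hybrids of related species carry 1 genome copy from each parent, and most of their genes are expressed at or between the parental levels. Expression above both parents, often called transgressive or overdominant, is 1 of the patterns studied in work on heterosis, the superior growth or vigour of some hybrids. The liver of fish makes plasma proteins, lipoproteins and growth factors and handles lipid and sugar, which is why it is sampled in studies of growth. In such bulk samples, a change in the makeup of cells and a change of RNA per cell cannot be told apart.

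Liver libraries varied in what a few abundant IDs took of the total, with overlap between hybrids and parents. The 10 IDs with the highest FPKM in a library held 41.4% to 54.3% of the FPKM sum in hybrid livers, against 29.5% to 48.0% in parental livers, and the IDs that reached 1 FPKM numbered 9437 to 11343 in hybrid livers, against 10936 to 11839 in parental livers. Across the 12553 IDs tested in liver, the median hybrid difference from the mid-parent (the mean of both parents on the log2 scale) was -0.35 as deposited and -0.02 after median-ratio scaling, which divides each library by its median ratio to the tissue's typical library. By limma, 2.64% of IDs tested in liver were called higher than the mid-parent and 29.9% lower (4.71% and 2.87% after scaling). The members were chosen on these values, so their own calls are not given. All hybrid libraries lay above all parental ones for 0.303% of the IDs tested. Depth in fragments is not known for any library.

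In liver, the members varied in how far the hybrids departed from the parents. The ratio of the hybrid mean to the higher parental mean ran from 1.53 to 16.5 over the members, with a median of 6.66. It was at least 5 in 9 members, under 3 in 4, and 4.45 in evm.model.Chr11.311. Departures are called large or modest below by a cut at 5, which was a choice. Without LC 1 the ratio of evm.model.Chr11.311 was 6.31. It was 4.41 in evm.model.Chr1.1130 without LP 2 and 4.72 in evm.model.Chr14.152 without LP 1. The side of the cut on which these members lay thus depended on single libraries. The lowest hybrid library exceeded the highest parental one by a factor of 1.03 to 3.36, with a median of 1.29, so for most members the groups were separate by a narrow margin although their means lay far apart.

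**Figure D1:**
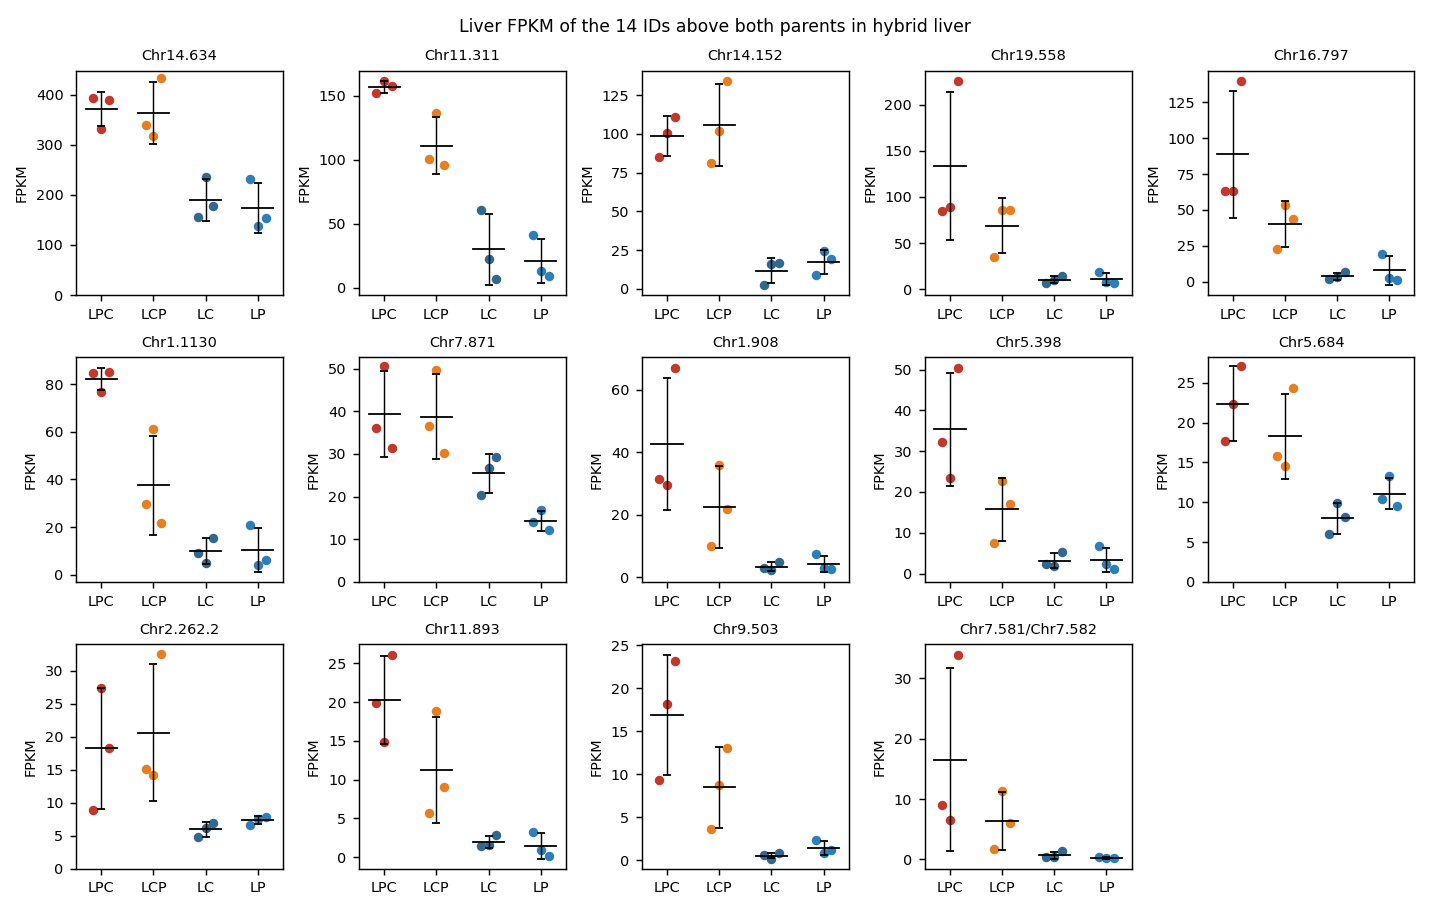
Liver FPKM of each of the 14 members (vertical axes, linear, each with its own range) in the 3 libraries of LPC, LCP, LC and LP. Points are libraries, horizontal lines are means and bars are SD (n = 3), and in each panel all 6 hybrid points lie above all 6 parental points.

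The most abundant member, evm.model.Chr14.634, had liver FPKM of 393, 332 and 390 in LPC and 340, 317 and 433 in LCP, against 156, 237 and 178 in LC and 231, 137 and 153 in LP. Both hybrids lay at a like level, and both parents did too. The hybrid mean was 367 and the ratio to the higher parent 1.93, among the smaller departures. evm.model.Chr11.311 had 152, 161 and 157 in LPC and 101, 136 and 95.5 in LCP, against 60.8, 22.8 and 6.74 in LC and 41.0, 13.3 and 9.25 in LP. Its 3 LPC libraries nearly coincided, while its parental libraries spread over a factor of 9.02, so that leaving out LC 1 set the ratio at 6.31 and leaving out LC 3 at 3.20.

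The widest gap between hybrid and parental libraries belonged to evm.model.Chr14.152, at a factor of 3.36. It had 85.0, 101 and 111 in LPC and 81.4, 102 and 134 in LCP, against 2.56, 16.0 and 16.7 in LC and 9.01, 24.2 and 19.2 in LP. LPC and LCP overlapped fully, with means of 98.8 ± 13.0 (LPC) and 106 ± 26.6 (LCP; SD over 3 libraries). The hybrid mean was 5.86 times that of LP, the higher parent.

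Among the large departures, evm.model.Chr19.558 had 85.2, 88.8 and 226 in LPC and 34.4, 86.2 and 85.5 in LCP, against 6.27, 10.3 and 14.4 in LC and 18.2, 7.61 and 6.92 in LP. The library LPC 3 stood far above the other hybrid libraries and LCP 1 below them. The ratio was 9.27, and 6.97 without LPC 3. evm.model.Chr16.797 had 63.0, 63.2 and 140 in LPC and 22.5, 53.7 and 44.0 in LCP, against 1.70, 3.56 and 6.42 in LC and 19.6, 2.87 and 1.36 in LP. Here LP 1 reached close to LCP 1, and the ratio of 8.10 became 16.5 without LP 1. evm.model.Chr1.1130 had 84.6, 76.8 and 85.3 in LPC and 29.6, 61.1 and 21.9 in LCP, against 9.23, 4.75 and 15.6 in LC and 21.0, 4.26 and 6.12 in LP. Its lowest hybrid library exceeded LP 1 by a factor of 1.04.

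Both evm.model.Chr1.908 and evm.model.Chr5.398 followed the same outline at lower levels. evm.model.Chr1.908 had 31.4, 29.6 and 67.0 in LPC and 9.80, 35.8 and 21.7 in LCP, against 2.95, 2.30 and 4.81 in LC and 7.23, 2.87 and 2.71 in LP, a ratio of 7.62. evm.model.Chr5.398 had 32.2, 23.4 and 50.5 in LPC and 7.52, 22.8 and 17.1 in LCP, against 2.42, 1.83 and 5.18 in LC and 6.76, 2.41 and 1.11 in LP, a ratio of 7.46. In both, LPC 3 was the highest hybrid library and LCP 1 the lowest.

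Members of low parental level had some of the largest ratios. evm.model.Chr11.893 had 19.9, 14.8 and 26.1 in LPC and 5.71, 18.8 and 9.09 in LCP, against 1.41, 1.55 and 2.88 in LC and 3.29, 0.87 and 0.17 in LP, a ratio of 8.08. evm.model.Chr9.503 had 9.40, 18.2 and 23.2 in LPC and 3.62, 8.78 and 13.1 in LCP, against 0.59, 0.22 and 0.85 in LC and 2.37, 0.86 and 1.18 in LP, a ratio of 8.65. Parental livers held both at under 4 in each library, so these ratios rest on small denominators. The largest ratio, 16.5, was that of evm.model.Chr7.581_evm.model.Chr7.582, an ID that joins 2 model names. It had 9.03, 6.54 and 34.0 in LPC and 1.67, 11.4 and 5.98 in LCP, against 0.37, 0.36 and 1.35 in LC and 0.43, 0.20 and 0.18 in LP. LPC 3 and LC 3 weighed most on it. Without LPC 3 the ratio was 9.98, and without LC 3 it was 31.3.

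The 3 remaining modest members departed by less than a factor of 3. evm.model.Chr2.262.2 had 8.94, 27.4 and 18.3 in LPC and 15.1, 14.1 and 32.6 in LCP, against 4.81, 6.11 and 6.97 in LC and 6.67, 7.59 and 7.82 in LP. Its parental libraries lay close together and its hybrid libraries spread over a factor of 3.65. evm.model.Chr5.684 had 17.7, 22.3 and 27.1 in LPC and 15.8, 14.6 and 24.4 in LCP, against 6.01, 9.89 and 8.11 in LC and 10.4, 13.3 and 9.55 in LP. evm.model.Chr7.871 averaged 39.4 ± 10.1 (LPC) and 38.7 ± 9.93 (LCP; SD over 3 libraries), compared with 25.5 ± 4.61 (LC) and 14.3 ± 2.37 (LP). It lay just inside the fold limit, with a ratio of 1.53, followed by evm.model.Chr5.684 with 1.84, and no ID that met the other conditions lay outside that limit. At the limit on level, evm.model.Chr7.581_evm.model.Chr7.582 and evm.model.Chr9.503 lay inside, with hybrid means of 11.4 and 12.7, and evm.model.Chr6.346 and evm.model.Chr5.530 outside, with 3.71 and 1.54. At the limit of 8 between tissues, evm.model.Chr11.311 (7.53) and evm.model.Chr1.1130 (6.64) lay inside, and evm.model.Chr9.61 (9.75) and evm.model.Chr7.580 (11.7) outside.

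The members with large departures were ordered alike within each cross, which the rule did not ask for. In all 9 members with a ratio of at least 5, LPC 3 was the highest of the 3 LPC livers, and in 8 of them LCP 1 was the lowest of the 3 LCP livers. The parental livers showed it too. LC 3 was the highest LC liver in 9 of the 9, and LP 1 the highest LP liver in 8 of the 9. Of the 5 other members, 1 had LPC 3 highest among LPC and 0 had LCP 1 lowest among LCP. In the parental livers of these 5, LC 3 was the highest of LC in 2 and LP 1 the highest of LP in 2. The ratio that split the members was taken from these libraries, and a high LPC 3 raises it. The contrast between the 9 and the 5 is thus not independent of the cut. Over all IDs tested in liver, LPC 3 was the highest of its cross in 33.8%, LCP 1 the lowest in 37.9%, LC 3 the highest in 24.0% and LP 1 the highest in 39.0%. All 4 held together for 7 members and for 163 of the 12553 IDs tested, or 1.30%. This ordering was noticed in the same libraries after the values were seen, and members measured in 1 library share that library, so it is a description with no test.

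**Figure D2:**
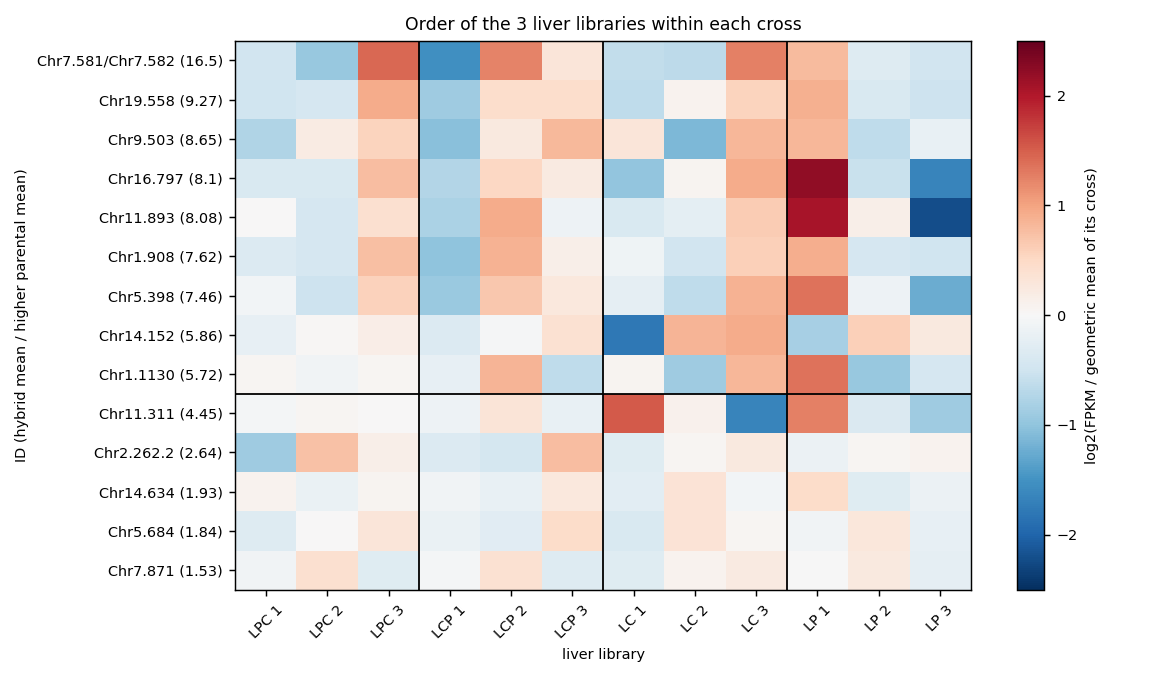
Each cell is the log2 of a liver library's FPKM over the geometric mean of the 3 libraries of its cross, with members (rows) sorted by the ratio of hybrid mean to higher parental mean, given in brackets, and a line below the 9 with a ratio of at least 5. In these 9, LPC 3 was the highest of its cross in 9, LCP 1 the lowest in 8, LC 3 the highest in 9 and LP 1 the highest in 8.

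The library LCP 1, the lowest hybrid liver for 8 of the 14 members, also had the largest share of its FPKM in its 10 most abundant IDs, 54.3%, and the fewest IDs that reached 1 FPKM, 9437. LPC 3, the highest hybrid liver for 9 of the 14, had 46.6% and 10836 IDs. Median-ratio size factors were 0.687 for LCP 1, 0.707 and 0.762 for the other LCP livers and 0.955 to 1.04 for LPC livers. The part of these library properties in the order of the members was not tested. Hybrid libraries spread over a factor of 1.65 to 20.3 in the 9 members (median 6.41) and of 1.36 to 3.65 in the 5 others (median 1.69).

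The levels of both hybrids were compared next. The rule used the same libraries and limited how low either hybrid could lie, so what follows is a description and not an independent test. The LPC mean exceeded the LCP mean in 12 of the 14 members, in 8 of them by at least 1.5 times, and LPC and LCP libraries did not overlap in 4, evm.model.Chr11.311, evm.model.Chr16.797, evm.model.Chr1.1130 and evm.model.Chr5.398, all higher in LPC. That is 4 of 14, where 30.2% of IDs tested had all LPC above all LCP libraries, a share near that of the members. None of these differences was called by limma, with 0 of 14 past an adjusted p of 0.05, where 0.191% of IDs tested in liver were called higher in LPC and 0.0478% lower. Without adjustment 3 of 14 fell under 0.05, as did 2552 of 12553 IDs. The largest differences were in evm.model.Chr1.1130 (means 82.2 ± 4.73 for LPC, 37.5 ± 20.8 for LCP, SD over 3 libraries), with a log2 difference of 1.24 (SE 0.55, limma adjusted p = 0.237), and evm.model.Chr7.581_evm.model.Chr7.582, with 1.17 (SE 0.60, limma adjusted p = 0.277). The members' median log2 difference was 0.91, beside 0.33 over all IDs tested. After median-ratio scaling 9 of 14 were higher in LPC and 5 lower, with a median of 0.46 beside 0.00 over all IDs, and 0 of 14 were called. The 5 were evm.model.Chr14.152, evm.model.Chr14.634, evm.model.Chr2.262.2, evm.model.Chr5.684 and evm.model.Chr7.871.

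Between the parental species, 0 of the 14 members were called in liver by limma, where 8.07% of IDs tested were called higher in LC and 7.52% lower. The rule used these libraries too. At an unadjusted limma p under 0.05 there was 1 member of 14, beside 3872 of 12553 IDs. That member, evm.model.Chr7.871, had a log2 difference of 0.79 (SE 0.26, limma adjusted p = 0.0678). Its livers were at 20.4, 26.7 and 29.3 in LC against 14.02, 16.8 and 12.1 in LP. Its lowest LC library lay above its highest LP library. The share of all IDs separated in this way was not computed, so the separation is not read as a trait of this member. Of the members, 7 leaned to LC and 7 to LP, with a median of 0.01 beside 0.01 over all IDs. The rule asked for a distance from the higher parent, which bears on how far apart the parents of a member could lie.

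In the other tissues the members had different profiles. In hybrids, the liver mean exceeded the brain mean in 13 of the 14 members, and in 23.1% of the 12553 IDs tested in liver. In parents, brain exceeded liver in 10 of the 14, and in 69% of those IDs. The rule asked for liver values that are high in hybrids and lower in parents, so the shift between both counts follows from it. Muscle was the lowest of the 3 tissues in 13 of the 14 over all crosses. The exception was evm.model.Chr19.558, at 46.7 in muscle and 25.3 in brain of hybrids, against 18.3 in muscle and 24.3 in brain of parents (means of 6 libraries). For this count of 13 the share over all IDs was not computed, so it is not read as a trait of the members. IDs that reached 1 FPKM numbered 7179 to 10645 in muscle libraries, 9437 to 11839 in liver and 15122 to 17177 in brain.

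Several members were mainly brain IDs in the parents. evm.model.Chr7.581_evm.model.Chr7.582 had a mean FPKM of 30.3 in brain and 11.4 in liver of hybrids, against 35.0 in brain and 0.482 in liver of parents. Its brain libraries ran from 21.8 to 41.9 in hybrids and from 18.5 to 44.2 in parents, so the brain ranges overlapped almost fully. evm.model.Chr9.503 had 7.33 in brain and 12.7 in liver of hybrids, against 7.79 in brain and 1.01 in liver of parents. For evm.model.Chr14.152 the means were 44.5 in brain and 102 in liver of hybrids, against 45.2 in brain and 14.6 in liver of parents. In the last 2, liver was above brain in hybrids and below it in parents, while the brain means were close.

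**Figure D3:**
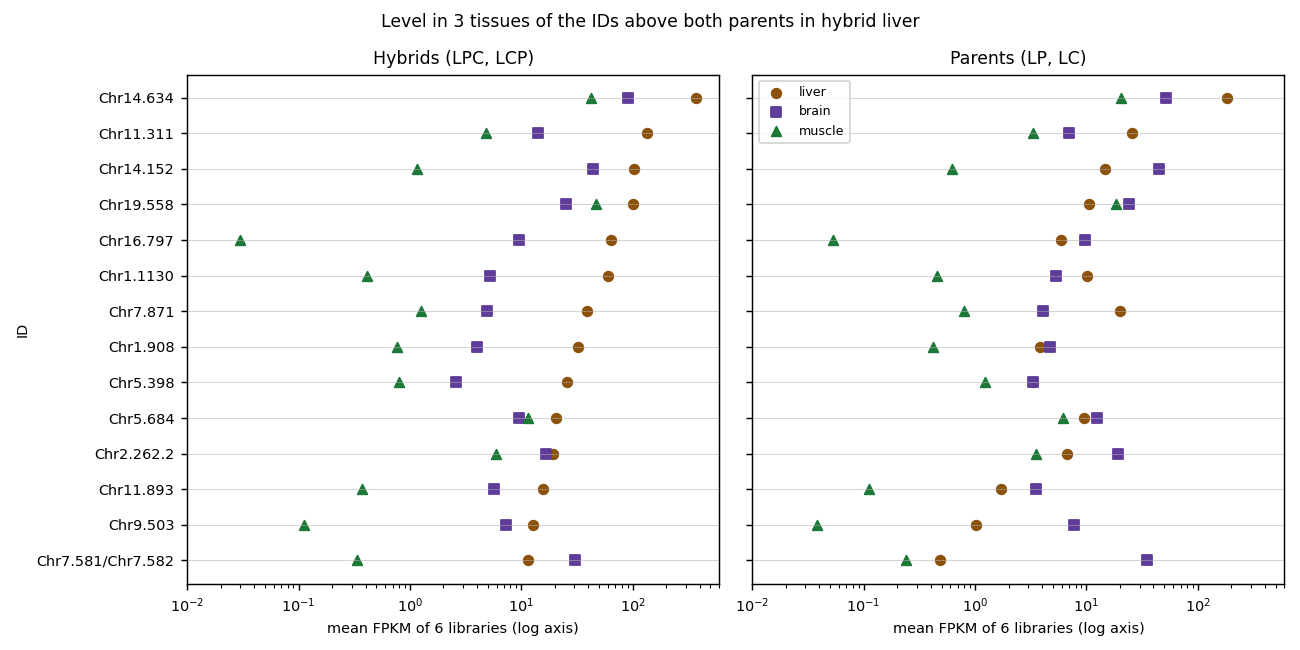
Mean FPKM (log axis) of each member in liver, brain and muscle over the 6 hybrid libraries (left) and the 6 parental libraries (right). Liver lies right of brain in 13 of 14 members in hybrids and in 4 of 14 in parents, a shift that the choice of members by liver level brings with it.

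In brain, which the rule used only through tissue means, 0 of the 14 members were called in hybrids against the mid-parent by limma, where 0.039% of IDs tested were called higher and 0.0112% lower. All 14 passed the filter on low values (1 FPKM or more in 3 or more of the 12 libraries). Of the members, 7 lay above and 7 below the mid-parent, with log2 differences from -0.34 to 0.89 and a median of -0.02, beside 0.01 over all IDs. At an unadjusted p under 0.05 there were 2 members and 1120 of 17931 IDs.

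The larger of these brain differences was in evm.model.Chr11.311, with 12.1, 10.8 and 18.1 in LPC and 8.72, 15.02 and 20.2 in LCP, against 5.26, 6.66 and 5.09 in LC and 8.45, 9.90 and 6.90 in LP. Only LCP 1 among the hybrid libraries lay within the parental range. The log2 difference was 0.89 (SE 0.21), at an unadjusted limma p of 0.00155 and an adjusted p of 0.375. After median-ratio scaling all 6 hybrid brains lay above all 6 parental ones, as for 0.0781% of IDs tested (0.0669% as deposited). The adjusted limma p was then 0.29. The other was evm.model.Chr11.893, at 0.58 (SE 0.20, limma adjusted p = 0.732). Its brain means were 7.24 ± 1.52 for LPC and 4.10 ± 1.23 for LCP, compared with 4.78 ± 1.75 for LC and 2.28 ± 0.462 for LP (SD over 3 libraries). Neither difference passed the threshold.

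In muscle, limma called 6 members higher in hybrids than the mid-parent, where 42.8% of IDs tested in muscle were called higher and 4.42% lower. After median-ratio scaling it was 4, where 24.3% were called higher and 12.6% lower. Only 8 of the 14 passed the filter in muscle, and the other 6 (evm.model.Chr16.797, evm.model.Chr1.1130, evm.model.Chr1.908, evm.model.Chr11.893, evm.model.Chr9.503 and evm.model.Chr7.581_evm.model.Chr7.582) stayed under an FPKM of 1 in at least 10 of the 12 muscle libraries. All 6 have large departures in liver. evm.model.Chr14.152 and evm.model.Chr7.871 passed the filter through hybrid libraries alone, so their calls are no support. With no filter, when all 14 were tested, 7 were called higher, where 19.3% of the 21690 IDs were. The 7 included evm.model.Chr14.152, and evm.model.Chr1.908 and evm.model.Chr11.893, at 0.54 to 1.24 and 0.07 to 0.74 in hybrid muscle. The 21690 IDs include those that failed the filter, so 19.3% cannot be set beside the 42.8% above.

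The largest muscle difference was in evm.model.Chr19.558, with 46.3, 53.9 and 49.1 in LPC and 35.95, 34.9 and 60.1 in LCP, against 19.8, 18.7 and 23.1 in LC and 19.3, 13.9 and 14.7 in LP. All 6 hybrid libraries lay above all 6 parental ones, as in 6.64% of IDs tested. The log2 difference was 1.30 (SE 0.18, limma adjusted p = 2.88e-04). After median-ratio scaling it was 0.87 (SE 0.17, limma adjusted p = 0.00315), and the hybrid and parental libraries then overlapped (5.88% of IDs did not). This member alone also met the same limits in muscle, where 502 IDs did, with a hybrid mean of 46.7 and a ratio of 2.27 to the higher parent.

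evm.model.Chr14.634 had 38.0, 62.1 and 58.6 in LPC muscle and 24.7, 28.1 and 40.8 in LCP muscle, against 9.80, 15.2 and 10.3 in LC muscle and 22.6, 40.3 and 25.0 in LP muscle. LCP and LP overlapped, and LC lay below all others. The log2 difference was 1.09 (SE 0.22, limma adjusted p = 0.00204), and 0.67 (SE 0.16, limma adjusted p = 0.00823) after scaling. evm.model.Chr5.684 had 15.5, 12.3 and 15.7 in LPC and 6.55, 6.04 and 13.5 in LCP, against 3.12, 3.83 and 2.63 in LC and 9.92, 10.4 and 7.31 in LP. evm.model.Chr2.262.2 had 6.22, 8.71 and 7.53 in LPC and 3.71, 3.81 and 5.90 in LCP, against 1.42, 1.55 and 2.10 in LC and 5.63, 6.18 and 4.30 in LP. Both rose, by 0.87 (SE 0.20) and 0.71 (SE 0.16) as deposited and by 0.51 (SE 0.15) and 0.39 (SE 0.12) after scaling.

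In these 3 members and evm.model.Chr7.871, 4 of the 8 tested, the mean in muscle was highest in LPC and lowest in LC, as in 42.6% of IDs tested in muscle. Because evm.model.Chr7.871 passed the filter through hybrid libraries alone, its place in this count is no support. Median-ratio size factors had the same order at their ends, above 1 and up to 1.47 in LPC muscle and 0.577 to 0.711 in LC muscle. The first 3 were also the members called lower in LC than in LP muscle by limma, where 48.5% of IDs tested were called lower and 3.05% higher. Their log2 differences between LC and LP were -1.23 (SE 0.31) in evm.model.Chr14.634, -1.28 (SE 0.28) in evm.model.Chr5.684 and -1.24 (SE 0.22) in evm.model.Chr2.262.2, where the median of all IDs tested was -0.64. After scaling evm.model.Chr2.262.2 alone of the 3 was still called lower in LC, where 11.3% of IDs were called lower and 10% higher. By limma, evm.model.Chr19.558 (adjusted p = 0.00497) and evm.model.Chr14.152 (adjusted p = 0.0369) were then called higher in LC. As deposited, evm.model.Chr14.152 lay at 0.49 to 0.88 in LC muscle and 0.39 to 0.66 in LP muscle. It passed the filter through hybrid libraries alone, so its call is no support. Over all IDs the scaled median was -0.05.

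The remaining tested members reached at most 6.32 in any muscle library. evm.model.Chr11.311 ran from 2.05 to 6.32 in hybrids and from 0.40 to 6.28 in parents, with a log2 difference of 0.69 (SE 0.44, limma adjusted p = 0.219). evm.model.Chr5.398 ran from 0.07 to 2.10 in hybrids and from 0 to 3.33 in parents, with a log2 difference of -0.27 (SE 0.31, limma adjusted p = 0.492). Neither was called. evm.model.Chr14.152 reached 0.90 to 1.81 in hybrids and 0.39 to 0.88 in parents, without overlap as deposited, as in 6.64% of IDs tested. After median-ratio scaling its hybrid and parental libraries overlapped (5.88% of IDs did not). It passed the filter through hybrid libraries alone, so this separation is no support.

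The departure from the mid-parent was called larger in muscle than in brain for 3 of the 8 members tested in both tissues by limma. That fit took the libraries of both tissues as independent. The 3 were evm.model.Chr19.558, evm.model.Chr5.684 and evm.model.Chr2.262.2, where 30.4% of IDs were called larger and 1.91% smaller. The members' share is near that of all IDs. After scaling the first 2 were called, where 14.1% were called larger and 5.09% smaller. With quantile normalization 1 of the 8 members was called higher in muscle, where 15.2% of IDs were called higher and 16.6% lower.

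**Figure D4:**
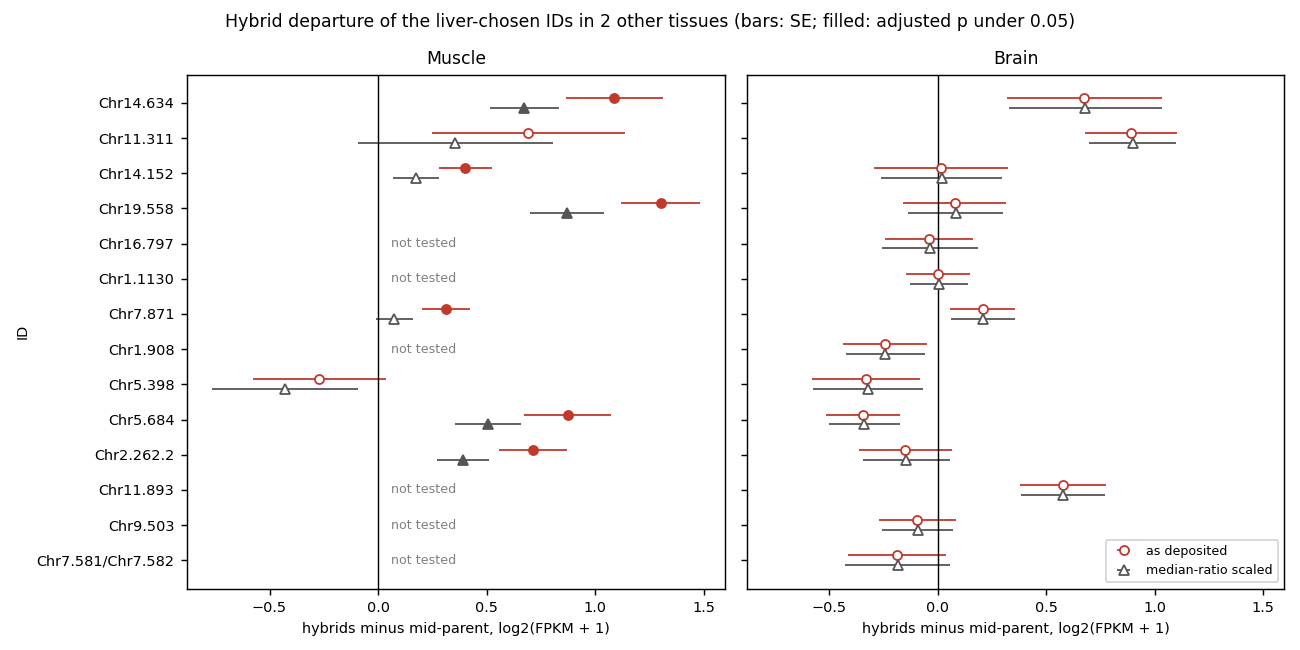
Log2 difference of the hybrids from the mid-parent (horizontal axis, log2(FPKM + 1)) for each member in muscle (left) and brain (right), as deposited (circles) and after median-ratio scaling (triangles), with bars of 1 SE and filled symbols for a limma adjusted p under 0.05. In muscle 6 of the 8 members tested are filled as deposited, where 42.8% of IDs tested were called higher and 4.42% lower. After scaling 4 are filled, where 24.3% were called higher and 12.6% lower. Of the 6, evm.model.Chr14.152 and evm.model.Chr7.871 passed the filter through hybrid libraries alone, so their calls are no support. In brain 0 of 14 are filled, where 0.039% of IDs tested were called higher and 0.0112% lower as deposited.

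The members were spread over the genome as far as their IDs tell. The IDs carry 9 of 24 chromosome numbers, no number held more than 2 members, and 0 pairs of members had consecutive model numbers. The files do not say that model numbers follow position. Of 27 IDs numbered directly before or after a member, 22 had a hybrid liver mean under the higher parental mean, as had 75.6% of the 21317 chromosome IDs. Only 10 of the 27 reached a hybrid mean of 5. evm.model.Chr5.685, numbered after evm.model.Chr5.684, had a hybrid mean of 7.87 and a ratio of 4.66, with overlapping hybrid and parental libraries. Of the 27, 1 had all hybrid livers above all parental livers, as had 35 of the 21317 chromosome IDs.

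That 1 neighbour, evm.model.Chr7.580, was numbered directly before evm.model.Chr7.581_evm.model.Chr7.582 and shared its liver outline. It had 32.5, 32.0 and 148 in LPC liver and 11, 61.0 and 29.0 in LCP liver, against 1.90, 1.96 and 5.67 in LC liver and 0.91 to 4.04 in LP liver. In both IDs LPC 3 was the highest hybrid library, LCP 1 the lowest and LC 3 the highest LC library, and both ratios to the higher parental mean were 16.5. The tissues differed. evm.model.Chr7.580 averaged 0.349 in brain over 12 libraries, against 32.7 in the joined ID, so the tissue limit dropped it. The next number, evm.model.Chr7.583, had a hybrid liver mean of 3.45 and a ratio of 1.496, with overlapping hybrid and parental libraries.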

How the data were processed

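Per the labels' protocols, mRNA was taken on oligo(dT) beads from TRIzol-extracted RNA, and cDNA was primed with random hexamers. The authors deposited FPKM for each library, and fastp is the only tool that the submitters' processing notes name. Aligner, quantifier, build: not given in the sources used here. All 36 columns were matched to libraries by name.

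The rule for members was applied to the deposited FPKM. limma 3.58.1 (R 4.3.3, trended prior variance) took log2(FPKM + 1) of each tissue's 12 libraries in 4 groups, for all IDs that reached 1 FPKM in 3 or more of them. Tests were 2-sided and adjusted over those IDs by the method of Benjamini and Hochberg. These were 12553 in liver, 10847 in muscle and 17931 in brain. Calls needed an adjusted p under 0.05. The added 1 shrinks fold changes of low IDs. FPKM divides by the library's total, so a few abundant transcripts lower all others. Median-ratio scaling within a tissue was therefore given beside it. The fits were also run on simulated data with independent noise. The simulated data held no shift shared by a library, so they do not bear on such shifts here.

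Ratios of low values (under 0.5) to those of the first LP library of a tissue put 4.93% to 19.2% of IDs in the fullest bin, 0.05 wide on the log2 scale, so whole fragments were not recovered and depth is unknown.

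Members, tests and the rule for named IDs (the 6 highest hybrid liver means, the 6 largest ratios, those next to a limit, up to 2 highest and 2 lowest called per contrast, and consecutive numbers) were chosen with earlier results of these data known. The order of libraries within crosses, muscle differences between LC and LP, the comparison of muscle with brain, neighbouring IDs and members beyond that rule were added after their values were seen. Lists of markers were not used, since the IDs have no names.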

Additional observations from a re-analysis of the deposited data

Results flagged for a closer look

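The hybrid departure from the mid-parent was called different between muscle and brain in 3 of the 8 members tested in both. The fit was by limma on the 24 libraries of these tissues. The departure was called larger in muscle for 30.4% and smaller for 1.91% of 10156 IDs (14.1% and 5.09% after scaling). The members' share is near that of all IDs. The difference of muscle minus brain was 1.22 on the log2 scale in evm.model.Chr19.558 (SE 0.29, adjusted p = 0.00363), 1.22 in evm.model.Chr5.684 (SE 0.26, adjusted p = 0.0015) and 0.86 in evm.model.Chr2.262.2 (SE 0.26, adjusted p = 0.0166). After median-ratio scaling within each tissue these were 0.79 (adjusted p = 0.0458), 0.85 (adjusted p = 0.011) and 0.53 (adjusted p = 0.11), and the last was then not called. The labels do not say whether muscle and brain libraries came from the same fish. The fit took them as independent, so these p-values may not hold if they were paired.

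Among the IDs that start with BGI_novel, which the rule left out, 3 met the same liver and tissue limits. BGI_novel_G000244 had a hybrid liver mean FPKM of 16.3, 18.5 ± 11.7 for LPC and 14.2 ± 3.37 for LCP, compared with 0.727 ± 0.629 for LC (SD over 3 libraries), and was listed at 0 in each LP liver. LP brains averaged 49.0 ± 17.5 and LP muscles 28.8 ± 6.86 (SD over 3 libraries). BGI_novel_G000905 had a hybrid liver mean of 12.9, at 1.76 times the higher parent. BGI_novel_G000307 had a hybrid liver mean of 10.5, 17.1 ± 9.13 for LPC and 3.97 ± 2.55 for LCP (SD over 3 libraries), and was listed at 0 in all parental livers.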

How the results depend on the processing

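The number of IDs that meet the rule depended on the scale. It was 14 as deposited, 100 after median-ratio scaling and 89 with quantile normalization. Of the 14, 13 were in both longer lists, evm.model.Chr11.311 being the exception, at 8.38 times the next tissue after scaling. Median-ratio size factors were 0.687 to 1.04 in hybrid livers and 1.1 to 1.31 in parental livers. That scaling thus raised each hybrid liver against each parental one. It could drop a member only through the tissue limit, so the 13 kept by it are no sign of stability. The number of IDs was 26 with no tissue limit and 8 with a tissue limit of 4. Leaving out 1 liver library gave 13 to 35 IDs. There were 22 without LPC 1, 23 without LCP 1, 31 without LCP 2 and 35 without LC 2. At least 13 of the 14 remained in each. With a library left out, the hybrids and parents of a member cannot come to overlap. Only the limits on fold, level and tissue could drop a member, so this too is no sign of stability.

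Of the 6 members called in muscle, limma called 4 after median-ratio scaling, where 24.3% of IDs tested were called higher. With quantile normalization it called 1, evm.model.Chr19.558, where 15.2% of IDs tested were called higher. Leaving out 1 muscle library gave 4 to 6. Over all IDs, the fewest were called higher without LPC 2, 3883 of 10626, and the most without LCP 2, 4827 of 10789. evm.model.Chr7.871 was lost without LPC 2, LPC 3, LCP 3, LP 1, LP 3, LC 1 or LC 3. evm.model.Chr14.152 failed the filter and was not tested without LPC 2, LPC 3 or LCP 2, nor were it and evm.model.Chr7.871 with the filter at 5 FPKM. Beside these 5 untested cases, of 109 refits of these 6, 94 were still called, 15 were not and 0 changed direction. That tally includes evm.model.Chr14.152 and evm.model.Chr7.871, whose calls are no support. The refits also share most of their libraries, so they are not independent of each other. In brain, and in liver for LC against LP and LPC against LCP, 0 members were called under every alternative run, 0 to 0 with a library left out. Few IDs were called at all as deposited in brain (0.039% higher, 0.0112% lower) and for LPC against LCP (0.191% higher, 0.0478% lower). Both liver contrasts also used libraries that the rule used. These counts of 0 are thus no sign of stability. The same-numbered libraries of different crosses correlated from -0.369 to 0.656 in their deviations (brain), from -0.163 to 0.259 (liver) and from -0.223 to 0.171 (muscle), and not every one exceeded 0.1, so the numbers were not taken to pair them. In brain the median was 0.223, 10 of 18 exceeded 0.1, and the 6 among the libraries numbered 1 ran from 0.264 to 0.656. With a replicate block 6 members were called in muscle, where 4470 of 10847 IDs were called higher and 474 lower. In brain 0 were called, where 7 of 17931 IDs were called higher and 2 lower. Both liver contrasts had 0 of the members as well. Of 12553 IDs in liver, 914 were called higher in LC than in LP and 857 lower. For LPC against LCP these were 11 and 5. Depth is unknown, which limits what can be said of members under an FPKM of 1 in muscle.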
